A study of Mus musculus with 28 samples.

Results

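A set of 3101 accessible regions was examined that converted Pax7-GFP cells and fibroblasts given MyoD alone had in common and that no list of muscle stem cells held. Merging the peaks of 27 lists gave 255567 regions, and any peak of a library inside a region counted as a call there. The 3101 were called in both libraries of Pax7-GFP cells at day 10 of conversion and in both libraries of fibroblasts given MyoD alone for 8 days. They were called in no library of day 0 fibroblasts, quiescent satellite cells or activated satellite cells. They are called shared non-satellite regions here. They were thus selected on the calls of those 10 libraries, which are given as a description only. Tests use the other 17 libraries.

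MyoD is a basic helix-loop-helix transcription factor that binds E-box sequences, can open closed chromatin and can turn fibroblasts into muscle cells. Satellite cells are the stem cells of skeletal muscle. They carry the transcription factor Pax7, lie quiescent until injury, and then activate, switch on MyoD and divide. Forskolin raises cyclic AMP, RepSox blocks the TGF-beta type I receptor, and CHIR99021 inhibits GSK3 and so raises Wnt signalling. Together with MyoD they have been used to make cells that resemble muscle progenitors from fibroblasts. A region accessible in transposase sequencing (ATAC-seq) is DNA that the transposase can reach, often a promoter or an enhancer.

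The MEF14 fibroblasts came from E13.5 mouse embryos. They carried rtTA at Rosa, a doxycycline-inducible MyoD transgene (Col1a1-tetO-MyoD) and the reporter Pax7-nGFP. All MEF14 groups thus shared the inducible MyoD transgene and the reporter, the day 0 and FRG groups included. Conversion medium held 5 μM forskolin, 5 μM RepSox, 3 μM CHIR99021, 2 μg/ml doxycycline and 10 ng/ml basic FGF. Medium for plain MyoD expression kept doxycycline and basic FGF and left the small molecules out. The groups used were day 0, Dox+FRG at days 2, 4, 6 and 8, GFP-labelled Dox+FRG cells of days 8 and 10, Dox at days 4 and 8, and FRG at day 8. FRG was taken to stand for the small molecules, and the labels give no doses for the FRG group. MEF10 cells were labelled MyoD+FRG or MN+FRG at day 6, and the labels define neither the MEF10 line nor MN. Satellite cells, quiescent or activated, came from adult Pax7-nGFP mice. Each of the 14 groups had 2 libraries, and no label states separate cultures or animals for them. The p-values therefore reflect spread between libraries only, which may be technical. Groups without a GFP label are called unsorted, which the labels do not state.

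The 27 lists held 37301 to 134997 peaks, and no list gives a score or read count, so depth is unknown. The longest lists were those of FRG cells, then those of Dox day 8 cells, and the shortest of the 27 was MEF10 MyoD+FRG replicate 1. The second MEF10 MyoD+FRG list, with very wide peaks, was left out of the regions. A missing peak in a bulk library does not tell fewer cells with the region open from less accessibility per cell, nor either from a shallow library.

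Of 12017 regions called in all 4 required libraries and in no day 0 library, the shared non-satellite regions made up 25.8%. A further 2274 (18.9%) were called in all 4 satellite cell libraries and are called satellite counterparts here. Another 3551 (29.5%) were called in activated and no quiescent libraries, and 1357 (11.3%) in quiescent and no activated libraries. Against day 0, 7.73% of all regions were called in both day 10 GFP libraries and neither day 0 library, and 17.5% in both Dox day 8 libraries and neither day 0 library. These counts follow from the rule.

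Many regions lay just outside the rule. In all, 2336 regions were called in the 4 required libraries and in exactly 1 barred library, and 2883 were called in no barred library and missed 1 required library. Among the former, 831 were called in activated satellite cell replicate 2 alone, 690 in quiescent replicate 1 alone, 211 in activated replicate 1 alone and 15 in quiescent replicate 2 alone. The order follows the length of those lists within each group, 61400 and 49072 peaks for activated and 57859 and 37910 for quiescent cells. Regions barred by 1 library were called in a median of 10 of the 17 other libraries, the shared non-satellite regions in a median of 9, and regions missing 1 required library in a median of 5. The absence of the set from satellite cells is therefore an absence from these 4 lists.

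Outside the 10 libraries of the rule, the shared non-satellite regions ranged from regions called in every library to regions called in none. Of the 3101, 43 were called in all 17 other libraries and 27 in none. The satellite counterparts had a median of 13 of 17 libraries, 3133 regions of day 10 GFP cells that no Dox day 8, day 0 or satellite cell library called had a median of 2, and all 255567 regions had a median of 2. The counts over the 17 libraries form 1 broad hump around the median with no separate group at either end.

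**Figure D1:**
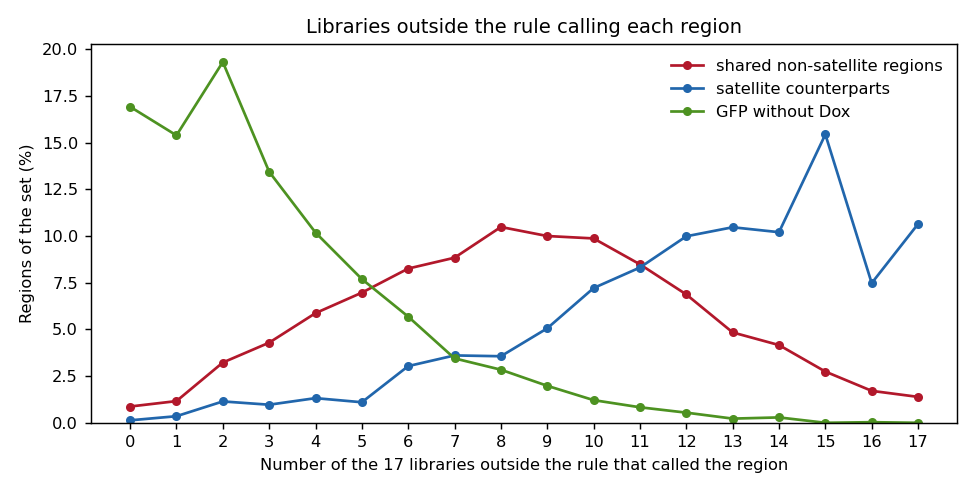
Percent of regions (y axis) by the number of the 17 libraries outside the rule that called them (x axis), for the 3101 shared non-satellite regions, the 2274 satellite counterparts and the 3133 regions of day 10 GFP cells called in no Dox day 8 library. The shared non-satellite regions peak at 8 libraries with 10.5%, between the other sets.

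The 3 widest regions called in all 17 libraries show the constant end of this range. They lay in mm9 on chromosome 4 from 64938690 to 64940586 (1897 bp), on chromosome 7 from 119941175 to 119942680 (1506 bp) and on chromosome 14 from 111017750 to 111019059 (1310 bp). Each was called in every converted, Dox, FRG and MEF10 library and in none of day 0 fibroblasts or satellite cells. The 3 widest of those called in no other library all lay on chromosome 8, from 129781133 to 129781724 (592 bp), from 94561632 to 94562062 (431 bp) and from 24236530 to 24236875 (346 bp). These were called in the 4 required libraries alone. No annotation or sequence of mm9 was used here, so the genes near these regions and the motifs in them are not named.

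The regions were called more often on later days of conversion. In unsorted Dox+FRG cells the share called was 25.3% and 14.3% in the day 2 libraries and 62.5% and 39.1% in those of day 4. It was 69.1% and 70.6% at day 6, and 78.4% and 59.0% at day 8. Both day 2 libraries lay below every later library, and the day 8 libraries overlapped those of days 4 and 6. The means were 19.8% ± 7.80, 50.8% ± 16.5, 69.8% ± 1.05 and 68.7% ± 13.7 (SD, n = 2 each). Over the 8 libraries Pearson's r with day was 0.85 (exact permutation test, two-sided, p = 0.00873, adjusted p = 0.0393 over 9 tests). Spearman's rho was 0.78 (exact permutation p = 0.0349, adjusted p = 0.0629) and missed the threshold of 0.05 once adjusted. Without the day 2 libraries r was 0.59 (exact permutation p = 0.222) and without the day 8 libraries 0.93 (exact permutation p = 0.0222), so the relation rests on day 2. The rule bars day 0 calls and requires calls at day 10 of the same conversion, so it favours a rise over the days between, and these p-values are no independent support for one.

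List length moved with the share within each day. The longer list of a day had the higher share on all 4 days, from 59721 against 46017 peaks at day 2 to 67026 against 50608 at day 8. Mean list lengths on days 2, 4, 6 and 8 were 52869, 61207, 65170 and 58817 peaks. With 37301 peaks drawn at random from every list r was 0.97 (exact permutation p = 0.000794), over the 191 regions that then met the rule. Only 116 of the 191 belonged to the shared non-satellite regions, since the draw thinned the barred lists as well and let other regions enter. The rule favours a rise in the redrawn set too, so this r and p are no independent support for one. The part of list length in the rise of the shared non-satellite regions was thus not tested.

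Regions called in satellite cells as well were called in a larger share on each day. The satellite counterparts were called at 52.8% ± 10.0 on day 2, 81.9% ± 8.24 on day 4, 87.9% ± 0.435 on day 6 and 88.9% ± 4.88 on day 8 (SD, n = 2). The log2 ratio of the share of shared non-satellite regions to that of counterparts in the same library was -1.46 ± 0.31 on day 2, -0.72 ± 0.33 on day 4, -0.33 ± 0.01 on day 6 and -0.39 ± 0.21 on day 8. Its r with day was 0.84 (exact permutation p = 0.00873, adjusted p = 0.0393), and rho was 0.78 (exact permutation p = 0.0349, adjusted p = 0.0629). Without day 2, r was 0.58 (exact permutation p = 0.244). On a log2 odds ratio scale, which does not flatten near 100%, r was 0.69 (exact permutation p = 0.0746). The narrowing of the gap to the counterparts thus passed by r on the ratio scale with day 2 included, and not by rho, without day 2 or on the odds scale. The counterparts were called more often than the shared non-satellite regions in all 17 libraries. They had to be called in the 4 satellite cell libraries, which the shared non-satellite regions had to miss. That choice favours regions called often, so the gap is no independent support for an earlier call, and its part was not tested.

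**Figure D2:**
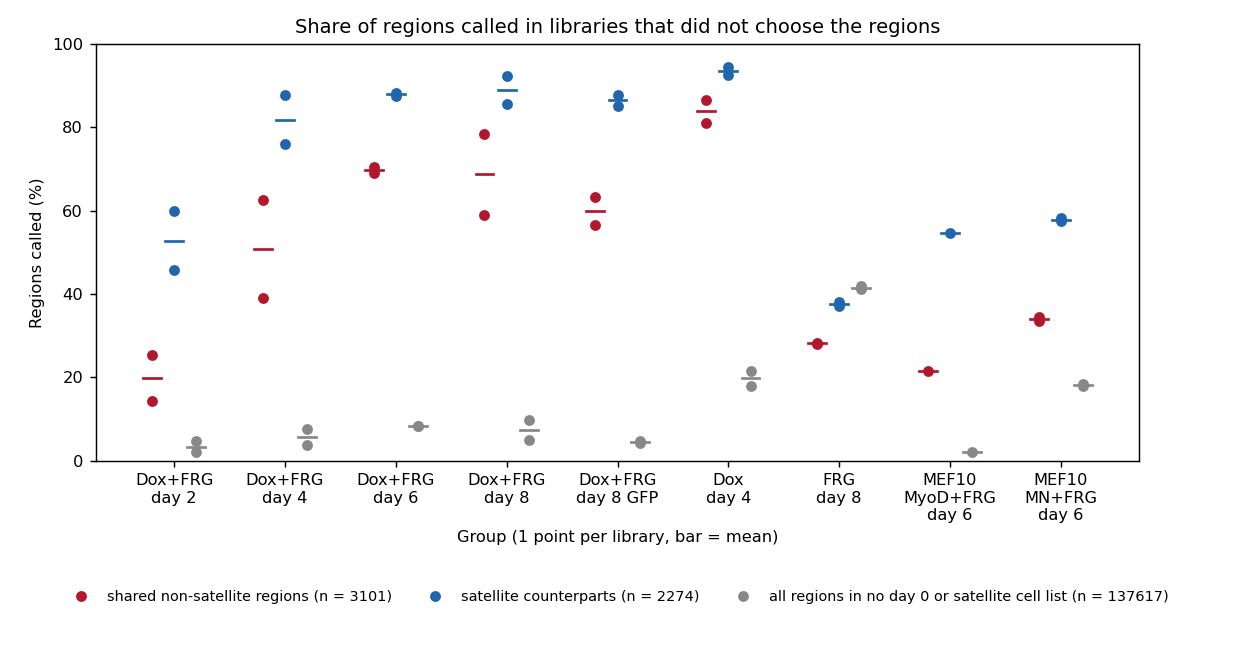
Percent of regions called (y axis) in each library outside the rule, by group (x axis). Points are libraries, bars are means of 2 libraries (1 for MEF10 MyoD+FRG). The shared non-satellite regions reach 81.1% and 86.6% with Dox at day 4 and are at 27.99% and 28.22% with FRG alone, where the grey background of regions in no day 0 or satellite cell list is at 41.8% and 41.1%.

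Counted by region, 354 (11.4%) had a call in both day 2 libraries and 842 (27.2%) first at day 4. A first call came on day 6 for 802 (25.9%) and on day 8 for 228 (7.35%). Another 875 (28.2%) were called in both libraries on no day, and 272 of these (8.77% of the set) in none of the 8 libraries. Over all regions, first calls on days 4, 6 and 8 came to 5.90%, 4.19% and 1.30%. Both libraries called 72.4% of all regions on no day, and 59.1% were in none of the 8 libraries. Among all regions called in no day 0 or satellite cell library, both libraries called 1.39%, 2.62%, 5.21% and 3.92% on days 2, 4, 6 and 8. The shared non-satellite regions stood at 11.4%, 35.5%, 59.6% and 55.8% on those days. They had been selected on calls in cells of the same cultures or transgene, so part of this gap comes with the choice. The background over all 255567 regions was 16.2%, 18.4%, 21.2% and 18.2%, so at day 2 the shared non-satellite regions were below it.

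From day to day, more regions were added than lost until day 6. Both libraries of day 4 and neither of day 2 called 592 regions (19.1%), against 3.59% of all regions, and the reverse held for 19, against 1.32%. Day 6 added 284 (9.16%) over day 4 in the same way, against 1.55%, and 22 went the other way, against 0.969%. Between days 6 and 8 the exchange was even, with 74 regions added, against 0.549%, and 71 left, against 1.4%.

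Most regions called early were called later too, which the required day 10 calls favour. Of the 842 regions first called at day 4, 665 (79.0%) were called in both libraries at days 6 and 8, against 55.2% of such regions in no day 0 or satellite cell library and 64.1% among all regions. Of the 354 called at day 2, 210 (59.3%) were called in both libraries at every later day, against 17.3% and 62.1%, and 24 were in neither day 8 library. Both libraries called 955 (42.0%) of the satellite counterparts by day 2 and 818 (36.0%) first at day 4. Of the 955, 840 stayed called throughout. Their required satellite cell calls favour regions called often. Of the 3133 day 10 GFP regions in no Dox day 8 library, 2459 (78.5%) were called in both unsorted libraries on no day. These differences between sets were not tested.

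**Figure D3:**
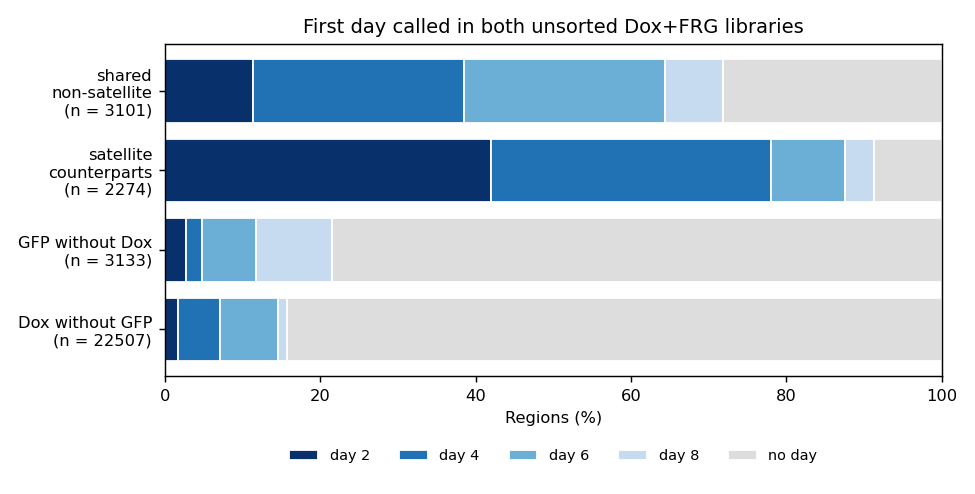
Percent of regions (x axis) by the first day on which both unsorted Dox+FRG libraries called them, for 4 sets of regions (y axis), where GFP without Dox means called at day 10 GFP and in no Dox day 8, day 0 or satellite cell library, and Dox without GFP the reverse. For the shared non-satellite regions the largest parts are no day (28.2%), day 4 (27.2%) and day 6 (25.9%), while the counterparts have 42.0% at day 2.

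With MyoD alone most of these regions were called by day 4. The Dox day 4 libraries called 81.1% and 86.6%, and the Dox+FRG day 4 libraries 62.5% and 39.1%. The groups did not overlap. The difference was 33.1 percentage points (exact permutation test, two-sided, p = 0.333, the smallest that 2 libraries against 2 allow, adjusted p = 0.5). Without Dox+FRG day 4 replicate 2 it was 21.4 points. The Dox lists were longer, with 89871 and 97854 peaks against 70877 and 51536, and with lists of equal length the difference was 4.45 points. Both Dox day 4 libraries called 2391 (77.1%) of the regions, against 13.7% of regions in no day 0 or satellite cell library and 30.7% of all regions. The rule required calls with Dox at day 8, so it favours these calls, and the test is no independent support for the difference. Dox without GFP regions averaged 52.8% with Dox and 12.5% with Dox+FRG at day 4. Day 10 GFP regions in no Dox day 8 library averaged 9.18% and 7.36%.

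Of the shared non-satellite regions, 639 (20.6%) were called in both Dox day 4 libraries and neither Dox+FRG day 4 library, and 41 (1.32%) the other way. Over all regions these shares were 8.29% and 0.964%. Of the 639, 219 (34.3%) were called in both Dox+FRG libraries at day 6, 186 (29.1%) at day 8 and 236 (36.9%) in both day 8 GFP libraries. In all, 375 (58.7%) were called in both libraries of at least 1 of those groups. Among all 12378 regions in no day 0 or satellite cell library that were called with Dox and not with Dox+FRG at day 4, the same held for 12.7%. The 639 were also called at day 10 in GFP cells by the rule, so a later call is partly built into the choice.

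Without doxycycline, most of these regions were not called. Both FRG libraries called 764 (24.6%), against 31.8% of regions in no day 0 or satellite cell library and 45.4% of all regions. Neither called 2122 (68.4%), against 48.8% and 41.8%. The share was 27.99% and 28.22% in the FRG libraries and 39.1% to 86.6% in 10 of the 12 MEF14 doxycycline libraries outside the rule (Dox+FRG days 4, 6 and 8, day 8 GFP and Dox day 4). The planned comparison left out the other 2, of Dox+FRG day 2, whose 25.3% and 14.3% lay below both FRG libraries. The mean difference over those 10 was 38.5 percentage points, and all 10 lay above both FRG libraries (exact permutation test over 66 splits, two-sided, p = 0.0152, the smallest it can give, adjusted p = 0.0455). With day 2 included it was 30.7 points over 12 libraries (exact permutation test over 91 splits, p = 0.0989), so the call holds only from day 4 on. The rule required calls in 4 doxycycline libraries and did not use the FRG libraries, so the choice of regions favours this direction. The test is thus no independent support for it. It also treats libraries of the same group as separate units, and the FRG side is a single group. Days differ between the sides, and the labels give basic FGF for the doxycycline groups and not for FRG. The FRG lists were the longest of all, with 134997 and 133267 peaks. Without either FRG library the test cannot go below 0.0909. With day 8 libraries alone the difference was 36.2 points (exact permutation p = 0.0667, the smallest it can give), and with extended peaks alone (those above the usual width of the list) it was 17.3 points (exact permutation p = 0.242).

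Region by region, both Dox+FRG day 8 libraries and neither FRG library called 1235 (39.8%), against 4.8% of all regions, and the reverse held for 193 (6.22%), against 28.4%. For day 8 GFP cells and FRG the counts were 1093 (35.2%), against 3.34%, and 262 (8.45%), against 31.4%. For Dox day 4 and FRG they were 1715 (55.3%), against 11.1%, and 104 (3.35%), against 23.1%. In each comparison the direction among the shared non-satellite regions was opposite to that among all regions, of which FRG cells had more. This reversal was not particular to the set, since the satellite counterparts showed it too. Both Dox+FRG day 8 libraries and neither FRG library called 50.6% of the counterparts, while 2.33% went the other way. With day 8 GFP cells it was 49.3%, while 4.00% went the other way. With Dox day 4 it was 54.2%, while 2.15% went the other way. Each of these sets had to be called in 4 doxycycline libraries, so the choice of regions favours this direction. The FRG libraries enter all 3 comparisons.

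The satellite counterparts were also called less often with FRG alone than in the doxycycline groups, at 37.5% ± 0.653 with FRG alone and 86.5% ± 1.83 in day 8 GFP cells (SD, n = 2). The log2 ratio to the counterparts was -0.42 ± 0.03 in the 2 FRG libraries and -0.43 ± 0.24 in the 10 doxycycline libraries from day 4 on, a difference of -0.01 (exact permutation p = 0.955, adjusted p = 0.955). With day 2 included, whose libraries had -1.24 and -1.68, the doxycycline mean was -0.60 ± 0.47 (SD, n = 12) and the difference -0.18 (exact permutation p = 0.67). On the odds ratio scale it was -1.24 (exact permutation p = 0.0152), so the result depends on the scale. With lists of equal length, over 191 regions and 78 counterparts, the ratio was 0.75 higher with doxycycline (exact permutation p = 0.0303).

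The regions that FRG cells called differed in timing from those they did not call. At day 2 of conversion, the 764 regions called in both FRG libraries were called at 39.3% ± 9.72, and the 2122 called in neither at 12.4% ± 6.93 (SD, n = 2). The 2 libraries gave 46.2% and 32.5% for the former and 17.3% and 7.54% for the latter, so the ranges did not overlap. By day 6 the order had turned, with 66.6% ± 0.555 against 71.4% ± 1.27, and at Dox day 4 it was 77.2% ± 6.39 against 86.5% ± 3.07. Of the 354 regions called at day 2, 202 (57.1%) were called in both FRG libraries, against 162 (19.2%) of the 842 first called at day 4 and 129 (16.1%) of the 802 first called at day 6. The counterparts showed 66.8% ± 10.1 and 44.1% ± 10.3 at day 2 for the same split. Of counterparts first called on days 2, 4 and 6, both FRG libraries called 44.2%, 25.7% and 25.2%, so the counterparts shared the higher share at day 2. Over all regions both FRG libraries called 45.4%. These are descriptions over regions, and the difference between the splits was not tested.

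**Figure D4:**
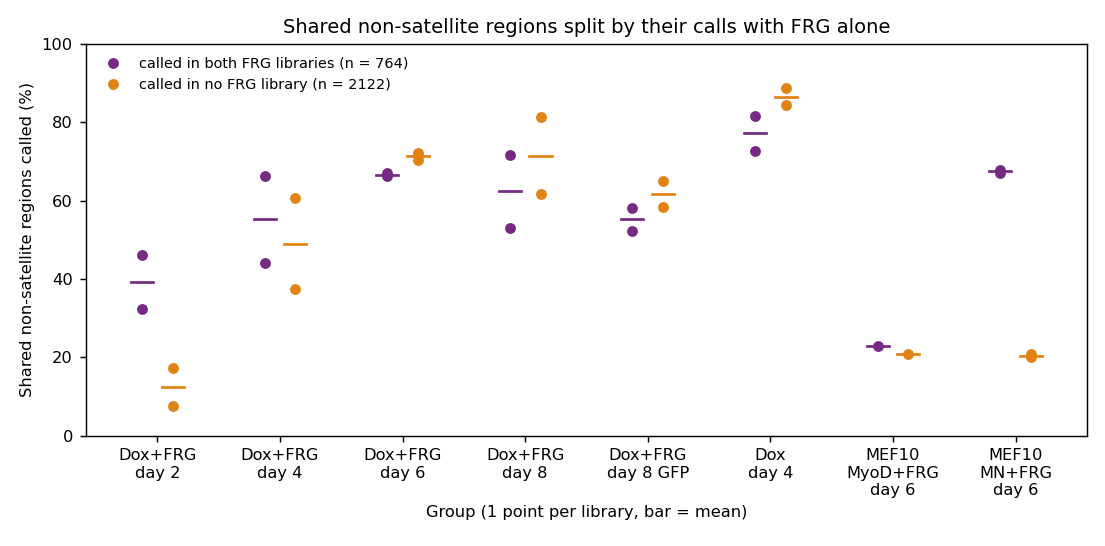
Percent of shared non-satellite regions called (y axis) in each library, by group (x axis), for the 764 regions called in both FRG-alone libraries and the 2122 called in neither. Points are libraries and bars their means. The FRG-called regions are higher at Dox+FRG day 2 (39.3% against 12.4%) and with MEF10 MN+FRG (67.5% against 20.5%), and lower at Dox day 4 (77.2% against 86.5%).

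Cells labelled GFP at day 8 called more than 50% of the regions in each library. The day 8 GFP libraries called 63.3% and 56.6%, and the unsorted day 8 libraries 78.4% and 59.0%. GFP replicate 1 lay between the unsorted libraries and GFP replicate 2 below both, and the mean difference of GFP minus unsorted was -8.76 points (exact permutation p = 0.667, adjusted p = 0.75, with 0.333 the smallest possible). It was 0.967 points without unsorted replicate 1 and 4.19 points with lists of equal length, so no direction can be given. The log2 ratio to the counterparts differed by -0.14 (exact permutation p = 0.667). Both day 8 GFP libraries called 1536 regions (49.5%), against 2.92% of regions in no day 0 or satellite cell library and 15.1% of all regions. Neither called 919 (29.6%), against 94.1% and 80.0%. The rule required calls in both day 10 GFP libraries, which favours calls at day 8 GFP. Day 10 GFP regions in no Dox day 8 library, with the same requirement, stood at 42.5% in both.

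Both day 8 GFP libraries and neither unsorted day 8 library called 128 regions (4.13%), and the reverse held for 321 (10.4%). Over all regions the shares were 1.08% and 4.06%. The GFP lists were shorter, with 47002 and 43467 peaks against 67026 and 50608. Of the 875 regions that unsorted Dox+FRG cells called in both libraries on no day, 252 (28.8%) were called in both day 8 GFP libraries and 512 (58.5%) in both Dox day 4 libraries. Among the 200 counterparts of this kind the shares were 45.5% and 57.0%, and over all regions 15.1% and 30.7%. The required day 10 GFP and Dox day 8 calls favour both counts.

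A core of 946 regions (30.5%) was called in both libraries of Dox day 4, Dox+FRG day 8 and day 8 GFP, against 0.821% of regions in no day 0 or satellite cell library, 11.5% of all regions and 71.8% of the counterparts. Of these, 689 (22.2% of the set) were called in no FRG library, against 0.601%, 1.74% and 43.2%. In no FRG or MN+FRG library were 444 (14.3%), against 0.403%, 0.881% and 17.3%. At the other side, 441 regions (14.2%) were called in both FRG and both MN+FRG libraries, against 7.37%, 25.3% and 24.8%. The required doxycycline libraries favour the former combination by choice.

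MEF10 cells called a minority of the regions in the 3 lists used. MyoD+FRG replicate 1, from the shortest list, called 667 regions (21.5%), against 1.95% of regions in no day 0 or satellite cell library and 14.4% of all regions. The MN+FRG libraries called 33.6% and 34.4%, and both called 850 (27.4%), against 12.6% and 30.6%. With 1 MyoD+FRG list there is no replicate check. Replicate 1 of MyoD+FRG and neither MN+FRG library called 302 regions (9.74%), and both MN+FRG libraries without it called 575 (18.5%). Over all regions these shares were 1.47% and 18.4%. Of the 354 regions called at day 2 in Dox+FRG cells, MyoD+FRG replicate 1 called 162 (45.8%), and of the 842 first called at day 4 it called 315 (37.4%). Of the 228 first called at day 8 it called 22 (9.65%). For counterparts first called on days 2, 4 and 8 the shares were 75.7%, 56.2% and 4.82%. The fall with later first calls was thus not particular to the set.

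Most peaks in these regions had the usual width, the mode of their list. The merged regions had a median width of 307 bp, against 490 bp for the counterparts, 272 bp for day 10 GFP regions in no Dox day 8 library and 200 bp for all regions. A peak above the mode was called extended. In each of the 17 libraries the share of extended peaks was lower for the shared non-satellite regions (1.05% to 25.7%) than for the counterparts (3.46% to 31.6%) and for all regions (6.54% to 32.4%). The lists give no peak height, and merged width also grows with the number of libraries that call a region.

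Peak centres of the required libraries were close within a region, which merging overlapping peaks into narrow regions makes likely. In regions with 1 peak per library, the centres of the day 10 GFP and Dox day 8 peaks lay a median of 33 bp apart for replicates 1 and 56 bp for replicates 2. Replicates of 1 group lay 37 bp apart (GFP) and 24 bp apart (Dox). The GFP and Dox peaks were within 100 bp of each other in 79.3% and 72.4% of the regions, and replicates in 85.6% and 86.4%. By this share peaks of different cell types coincided somewhat less often than replicates. By median distance the order was mixed, since the 33 bp of replicates 1 was below the 37 bp between GFP replicates. For the counterparts the GFP and Dox centres were 43.5 and 56.2 bp apart. They were within 100 bp in 70.2% and 69.2%, and replicates in 87.2% and 81.6%.

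The regions were spread over all chromosomes in the lists. The share of a chromosome's regions that belonged to the set ran from 0.977% on chromosome 15 to 1.44% on chromosome 3. Of the 3101 regions, 2422 (78.1%) were alone in their 100 kb window, 574 stood in pairs, and 1 window held 5. The nearest other region of the set lay a median of 182 kb away, and 34.6% had one within 100 kb. The counterparts lay a median of 164 kb from each other, with 38.5% within 100 kb.

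Their distance to satellite cell regions was close to that of all regions. The nearest region called in all 4 satellite cell libraries was a median of 30.6 kb away, against 30.2 kb for all 255567 regions, 35.3 kb for day 10 GFP regions in no Dox day 8 library and 16.1 kb for the counterparts. Within 5 kb there was such a region for 7.84% of the shared non-satellite regions and 9.58% of all regions. The nearest region called in both day 0 libraries was a median of 12.2 kb away, against 11.4 kb for all regions. These distances are descriptions without a test.

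The window with most of the regions lay on chromosome 4 from 82200001 to 82300000 (mm9), with 5 of its 21 regions in the set. Day 10 GFP and Dox day 8 libraries called all 5 by the rule. Dox day 4 called 4 in each library, Dox+FRG day 6 4 in each, day 8 4 and 3, day 8 GFP 4 and 2, and day 4 5 and 2. The day 2 libraries called 1 and 0, and FRG alone 1 and 2. Over all 21 regions of the window, Dox day 4 called 11 in each library, FRG alone 8 in each, and day 2 3 and 1. The widest, from 82249598 to 82251006 (1409 bp), was called in 13 of the 17 other libraries, and in every converted and Dox library from day 4 on. The one from 82244111 to 82245348 (1238 bp) was in no FRG or MEF10 library. The one from 82265492 to 82265776 (285 bp) went the other way, being called in both FRG and both MN+FRG libraries, in 1 Dox+FRG day 4 library and in no Dox day 4 library. Day 0 fibroblasts called 3 other regions of this window in each library, and satellite cells 4 or 5.

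Of 4 windows tied at 4 regions of the set, the 2 with the highest share of their regions in it were taken. One lay on chromosome 15 from 84200001 to 84300000, with 4 of 17 regions in the set. No day 2, FRG or MEF10 library called any of them, while Dox day 4 called 3 and 4 and day 8 GFP 3 and 2. Over all 17 regions of the window, Dox day 4 called 8 and 11 and day 8 GFP 7 and 5. FRG called 5 in each library, day 2 5 and 4, and the MEF10 libraries 3 to 5. The region from 84297247 to 84297499 was called in both day 8 GFP libraries and in no unsorted Dox+FRG library. The region from 84291906 to 84292142 was the reverse, called in both Dox+FRG libraries at days 6 and 8 and in no day 8 GFP library. The other, on chromosome 5 from 140700001 to 140800000, had 4 of 18 regions in the set. There the region from 140765764 to 140766010 was called in 14 of the 17 other libraries, in both FRG and both MN+FRG libraries, and in no day 8 GFP library. The region from 140770878 to 140771308 was called in every Dox+FRG library from day 4 on, in both day 8 GFP and Dox day 4 libraries, and in no FRG or MEF10 library.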

How the data were processed

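Chromatin accessibility was measured by ATAC-seq in 28 mouse libraries of 14 groups. Each reaction took 60000 cells and 13 PCR cycles, per the labels' protocols. BWA, HOMER and the build mm9 are named by the authors, per the submitters' processing notes. For versions, peak thresholds, read filters and a transposase shift, the entry is "not given in the sources used here". The deposited lists hold other values than counts or signal, namely chromosome, start and end of peaks called in 1 library.

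Peaks of 27 lists (without MEF10 MyoD+FRG replicate 2) overlapping by at least 1 bp were merged, and starts are printed counted from 1. Shares of regions called were compared over libraries outside the rule by exact two-sided permutation tests, with Benjamini-Hochberg adjustment over 9 tests (Python 3.11.15, scipy 1.17.1), at a threshold of 0.05. Alternatives were judged on the unadjusted p. Scripts were tested on simulated lists. The regions and sets were chosen with earlier results of these data known. Regions named are the 3 called in most and the 3 called in fewest of the 17 other libraries, widest first, and those of the 3 windows of 100 kb with most of them, ties broken by their share of the window's regions. Gene lists and motifs had been planned and were not run, since the reference tables at hand are of another build than mm9. Alternatives tried were an overlap of 50%, lists of equal length, autosomes, extended peaks, all 28 lists, regions of at most 1000 bp, each library left out and a replicate block.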

Additional observations from a re-analysis of the deposited data

Results flagged for a closer look

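The list left out of the regions, MEF10 MyoD+FRG replicate 2, was in no comparison. A peak of it overlapped 71.2% of the shared non-satellite regions (2207 of 3101), where the day 0 libraries called none by the rule. It overlapped 90.0% of the satellite counterparts, 21.2% of day 10 GFP regions in no Dox day 8 library, 17.3% of regions in no day 0 or satellite cell library and 36.6% of all regions. The peaks of this list are far wider than those of the others, and the part of their width in these overlaps was not tested.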

How the results depend on the processing

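The number of regions was 2728 to 3029 with a 50% overlap, autosomes, all 28 lists or regions of at most 1000 bp, and 3116 to 4137 without 1 library of the rule. It was 191 with lists of equal length (116 of the 3101 remained) and 247 with extended peaks (22 remained). Both alternatives kept fewer peaks in the barred lists as well, so regions outside the 3101 could enter. The 247 were mostly such other regions, and results with extended peaks describe them rather than the 3101. The relation with day had r = 0.59 without day 2, and its ratio to the counterparts 0.58 without day 2 and 0.69 on the odds scale. Leaving out a library gave r from 0.80 to 0.93 and from 0.80 to 0.90. Doxycycline minus FRG was 36.2 points at day 8 alone, 17.3 with extended peaks and 30.7 with day 2 included, where it no longer passed, and 36.3 to 41.6 without 1 library. Its ratio to the counterparts was 0.0041 with a 50% overlap, 0.0069 with all 28 lists, 0.75 with equal lists and -1.24 on the odds scale, and -0.044 to 0.049 without 1 library. GFP minus unsorted at day 8 was 4.19 points with equal lists and -18.5 to 0.967 without 1 library, and its ratio -0.29 to 0.0048. Dox minus Dox+FRG at day 4 was 21.4 to 44.8 points without 1 library. Changing the days or the odds scale was chosen after seeing the data. Where no construction is named, the cause was not tested.

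In a replicate block by library number, r was 0.89 and 0.88 (exact permutation p = 0.0139 each), doxycycline minus FRG 38.5 points (p = 0.0278), and no call changed. Deviations of same-numbered libraries correlated at -0.037 to 0.11 over 78 pairs of groups, 1 of them over 0.1. Such correlations of calls cannot decide whether same-numbered libraries share a culture or batch. Depth is unknown, and a missing peak sets no limit on accessibility.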
